A study of Mus musculus with 12 samples.

Results

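Migratory dendritic cells (DCs) sorted from the pancreas were compared with those sorted from the duodenum, over all genes measured. The 8 libraries were chosen by the tissue in their labels, out of 12 libraries in the series; the other 4, from liver, entered the fit and serve here to place a gene. Each tissue gave 4 libraries, and each library pooled the cells of 2 mice, so the libraries of a tissue are separate pools. All mice were of strain B6 and 6 to 8 weeks old, with no treatment or genetic change given in the labels. The sort kept live cells that were CD45+, LIN-, CD11c+, MHCIIhi, CD103+ and CD11b-, which is the surface profile of migratory conventional type 1 DCs (cDC1). RNA with a polyA tail was sequenced, and 44624 of 55401 genes had enough counts to be tested.

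cDC1 are the DCs that take up dying cells and present their antigens to CD8 T cells. In a tissue they sample material, and once they mature they gain the chemokine receptor CCR7 and travel in lymph to the draining lymph nodes, where they meet T cells. The pancreas and the duodenum are neighbours whose lymph reaches shared nodes, but the duodenum is exposed to food, bile and microbes and the pancreas makes digestive enzymes and hormones.

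Library totals ran from 228.5 to 356.1 M estimated counts in duodenum and from 248.8 to 272.6 M in pancreas. Values below are CPM, read counts set to 1 common library size with TMM factors, and they compare 1 gene between libraries, not genes with each other. Duodenum 2 stood apart from the other duodenum libraries, with a TMM factor of 1.09 against 0.887 to 0.924. The share of mitochondrially encoded genes was 1.33 to 1.42% in the duodenum libraries and 1.09 to 1.19% in the pancreas libraries. That of antigen receptor genes was 0.889 to 1.36% against 0.0169 to 0.126%.

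The label of the cells was checked against 3 of the genes that define cDC1 and against a longer list. Xcr1, the receptor by which cDC1 find CD8 T cells, was at 528, 330.2, 676 and 606 CPM in duodenum 1 to 4 and at 368, 435, 461 and 360.0 CPM in pancreas 1 to 4. Clec9a, a receptor for dead cells, was at 311, 210.3, 343 and 358 CPM in duodenum and 259.9, 300.4, 375 and 326 CPM in pancreas. Irf8, the transcription factor that cDC1 depend on, was at 1547, 1154, 1711 and 1599 CPM in duodenum and 1149, 1287, 1464 and 1155 CPM in pancreas. All 8 libraries held these 3 transcripts at levels that overlapped between the tissues, and none of the 3 genes passed the test with all libraries. Batf3, another cDC1 factor, did not overlap, at 124 to 137 CPM in duodenum and 73.2 to 123 CPM in pancreas. It was not called with all libraries (adjusted p = 0.09) but was called lower in 6 of 26 alternatives. The log2 difference (pancreas minus duodenum) had 95% intervals of -0.794 to -0.00364 for Xcr1, -0.30 to 0.39 for Clec9a and -0.52 to 0.02 for Irf8. Without duodenum 2, Xcr1 and Irf8 were called lower in pancreas. Of 23 cDC1 identity genes 5 were higher and 5 lower, against 3 higher without pancreas 3, 10 lower without duodenum 2 and 3 lower without duodenum 3. Cd207 (higher) and Cd8a (lower), described below, were among them. Itgam, which encodes the excluded CD11b, was between 1.37 and 3.49 CPM in the 8 libraries. Of the markers used for the sort, Itgae (CD103) and Itgax (CD11c) were lower in pancreas, with log2 differences of -0.77 ± 0.16 (SE, adjusted p = 0.00899) and -0.89 ± 0.16 (SE, adjusted p = 0.00293). All adjusted p-values here are from edgeR's quasi-likelihood test with Benjamini-Hochberg adjustment over all genes tested, and each SE is that of a log2 difference between 4 and 4 libraries.

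In all, 3437 genes (7.7% of those tested) were called at an adjusted p under 0.05 in edgeR's quasi-likelihood test, 1680 of them higher in pancreas (3.76%) and 1757 lower (3.94%). The 4 libraries of each tissue did not overlap for 5571 genes (12.5%). Among called genes this held for 1563 of the 1680 higher and 1544 of the 1757 lower. Genes named for the size of their difference were chosen among those without overlap, so their lack of overlap is no separate result. Called genes were more frequent among abundant ones. Of the 26549 genes that stayed under 1 CPM in the higher tissue 1.23% were called, against 33.3% of the 1713 genes over 100 CPM, where 177 were higher and 393 lower in pancreas. Between these levels the share was 12.1% at 1 to 10 CPM and 19.7% at 10 to 100 CPM. The counts of each gene list below are to be read beside these shares. By at least 2 on the log2 scale 460 genes were higher and 362 lower, and by at least 5, 53 were higher and 54 lower. For comparison, 494 genes (1.11%) were called between pancreas and liver in the same fit, which shares the pancreas libraries. Without duodenum 2, 1682 genes were called higher and 3034 lower, so 35.7% of calls were higher against 48.9% with all libraries. In these bulk samples fewer cells that express a gene and less RNA per cell cannot be told apart.

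**Figure D1:**
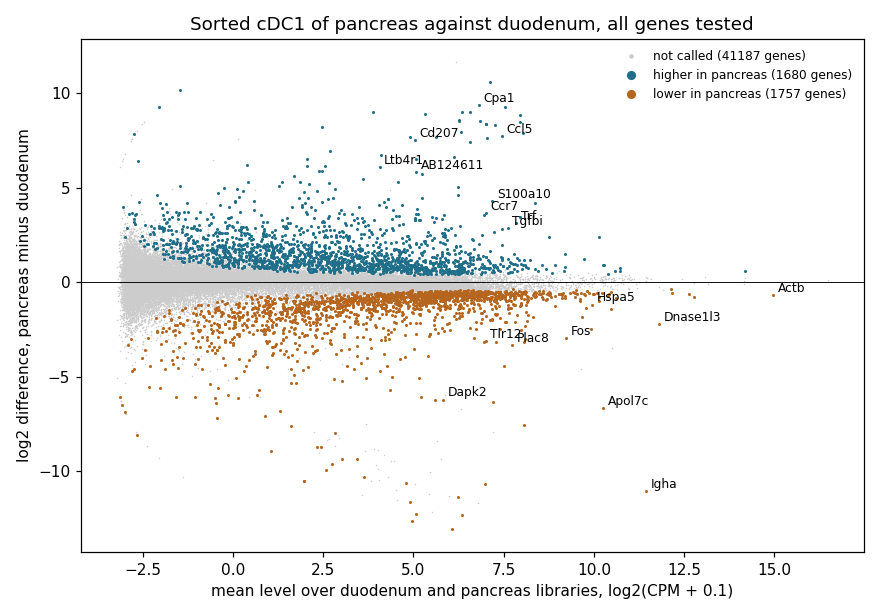
Each point is 1 of the 44624 genes tested, with its mean level over the 8 pancreas and duodenum libraries on the x axis (log2 CPM with 0.1 added) and the log2 difference, pancreas minus duodenum, on the y axis. Coloured points are the 1680 genes called higher and the 1757 called lower in pancreas, and the labelled genes are described in the text.

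Of the lists of immune genes examined, that of DC maturation and migration held the most genes higher in pancreas. Of the 49 genes of this list that were tested, 24 were higher and 3 lower (55.1% called), with a median log2 difference of 1.09 beside 0.09 over all genes. The lower count was 7 without duodenum 2, 6 without pancreas 3, 0 without pancreas 2 and 1 without duodenum 1, duodenum 3, pancreas 1 or pancreas 4. Ccr7, the receptor that guides DCs into lymph and to nodes, was at 24.3, 11.1, 32.2 and 8.84 CPM in duodenum and 182, 167, 397 and 215 CPM in pancreas. Fscn1, which encodes the actin-bundling protein fascin of mature DCs, was at 9.48, 8.31, 11.7 and 5.86 CPM in duodenum and 93.9, 61.8, 191 and 76.6 CPM in pancreas. Every pancreas library was above every duodenum library for both genes, and pancreas 3 was highest. Their log2 differences were 3.65 ± 0.43 (SE, adjusted p = 7.37e-05) and 3.58 ± 0.37 (SE, adjusted p = 2.18e-05). Il12b, a subunit of the cytokines IL-12 and IL-23 that drive T cell responses, was at 2.99, 3.88, 4.48 and 2.02 CPM in duodenum and 48.4, 58, 111 and 72.6 CPM in pancreas, a log2 difference of 4.44 ± 0.35 (SE, adjusted p = 1.62e-06). Il15ra, which presents the cytokine IL-15 to lymphocytes, was at 5.35, 1.76, 6.34 and 6.69 CPM in duodenum and 49.8, 51.1, 91.5 and 55.5 CPM in pancreas (log2 difference 3.62 ± 0.35 SE). Il4i1, an enzyme that oxidises aromatic amino acids, was at 13.7, 17.9, 17 and 14.7 CPM in duodenum and 64.2, 55.7, 119.9 and 79 CPM in pancreas (log2 difference 2.33 ± 0.27 SE).

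Further members of the maturation list rose. The log2 difference was 3.89 ± 0.37 (SE) for Cd63, a tetraspanin of late endosomes, and 4.44 ± 0.59 for H2-M2, a non-classical MHC class I gene. It was 3.31 ± 0.23 for Cacnb3, a calcium channel subunit, and 2.79 ± 0.40 for Socs2, an inhibitor of cytokine signalling. Relb, an NF-kappaB subunit needed for DC maturation, had a log2 difference of 1.09 ± 0.25 (SE, adjusted p = 0.0134), which was not called without pancreas 3. In pancreas the 4 libraries were not alike: pancreas 3 held the highest pancreas value for 24 of the 24 members that rose and pancreas 2 the lowest for 17. Without pancreas 3 the count was 21 higher, and over all libraries left out in turn it ran from 21 to 24. Not every maturation gene was higher. Cd86, a costimulatory ligand, was at 239, 156, 254 and 248 CPM in duodenum and 175, 220.2, 205 and 184 CPM in pancreas and Cd40, a receptor for T cell help, at 25.1, 15.5, 35.4 and 25.6 CPM in duodenum and 21.6, 19.7, 38.7 and 24.8 CPM in pancreas. Both overlapped between the tissues, with 95% intervals of the log2 difference of -0.51 to 0.12 and -0.51 to 0.61, and Cd86 was called lower only without duodenum 2 or without duodenum 2 and pancreas 1. Cd274, which encodes the checkpoint ligand PD-L1, was lower in pancreas (log2 difference -1.21 ± 0.34 SE, adjusted p = 0.0421), a call that ended when duodenum 1, duodenum 3, pancreas 1, pancreas 2 or pancreas 4 was left out.

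**Figure D2:**
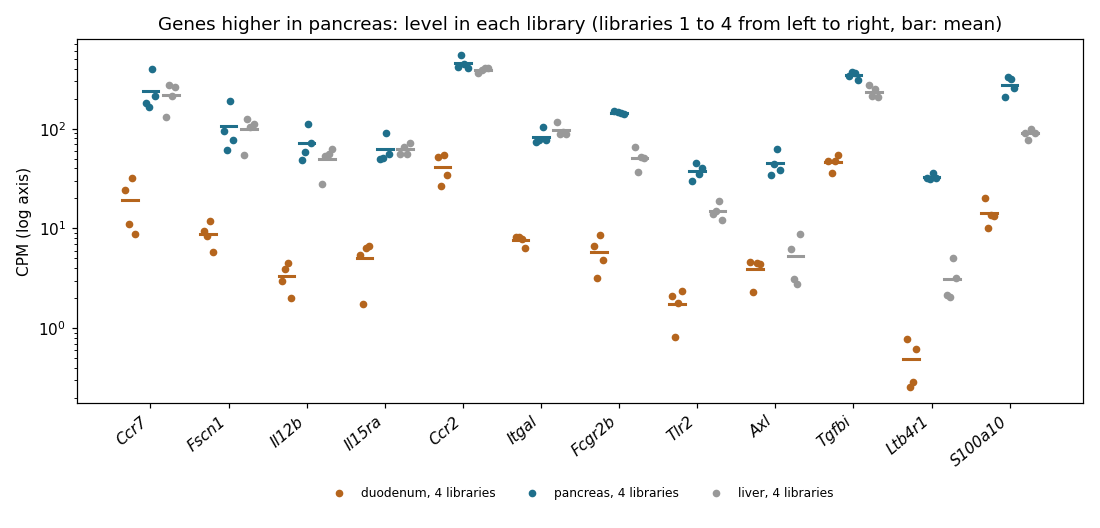
Values of 12 genes higher in pancreas, in CPM on a log axis, with 1 point per library and a bar at the mean of the 4 libraries; liver is shown in grey for reference. For all 12 genes the lowest pancreas library lies above the highest duodenum library, and for Ccr7, Fscn1, Il12b and Il15ra pancreas 3 is the highest of the 4.

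Chemokine genes went in both directions. Ccl5, a chemokine that attracts T cells, was at 4.11, 0.266, 1.96 and 0.219 CPM in duodenum and 284, 252, 611 and 253 CPM in pancreas, a log2 difference of 7.75 ± 1.08 (SE, adjusted p = 0.00116) that DESeq2's Wald test did not call. Ccl6, a ligand of CCR1 in mice, was at 6.68, 3.1, 4.11 and 3.79 CPM in duodenum and 175, 105, 166 and 137 CPM in pancreas. Ccl9, another such ligand, was at 1.24, 1.25, 0.897 and 1.03 CPM in duodenum and 10.9, 7.37, 11.8 and 10.4 CPM in pancreas, and neither gene overlapped between the tissues. Both were also higher in pancreas than in liver, with log2 differences of 2.72 ± 0.25 (SE, adjusted p = 2.92e-05) and 1.84 ± 0.20 (SE, adjusted p = 0.000173). Ccl17 and Ccl22, ligands of CCR4 made by mature DCs, rose with log2 differences of 2.09 ± 0.33 and 2.18 ± 0.41 (SE). Lower in pancreas were the CXCR3 ligands Cxcl9 and Cxcl10, which interferon-gamma induces. Cxcl9 was at 229, 130.3, 176 and 183 CPM in duodenum and 22.2, 30.6, 56.5 and 22.8 CPM in pancreas, with every pancreas library below every duodenum library (log2 difference -2.44 ± 0.30 SE, adjusted p = 9.87e-05). Cxcl10 (log2 difference -2.91 ± 0.52 SE) and Cxcl2, an attractant of neutrophils (log2 difference -4.63 ± 0.70 SE), fell as well. Of the 28 chemokine ligands tested 7 were higher and 5 lower.

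Among 22 chemokine receptors tested, 3 were higher and 3 lower. With the marker genes of other cell types and antigen receptor segments left out, 2 were higher and 2 lower. Ccr2, a receptor by which monocytes and some DC precursors leave blood, was at 51.6, 26.8, 54 and 34.3 CPM in duodenum and 413, 544, 447 and 410.5 CPM in pancreas (log2 difference 3.44 ± 0.21 SE, adjusted p = 2.34e-07). Cxcr3, the receptor for Cxcl9 and Cxcl10, was higher, at a log2 difference of 1.05 ± 0.17 (SE), while its ligands were lower. Ccr9, whose ligand is made by the small intestine, was at 68.4, 52.4, 107 and 78.3 CPM in duodenum and 9.48, 8.7, 8.88 and 19.4 CPM in pancreas (log2 difference -2.72 ± 0.29 SE, adjusted p = 3.37e-05), and Ccrl2, a receptor that holds chemerin at the cell surface, had a log2 difference of -2.09 ± 0.18 (SE). Liver lay between the tissues for Ccr9, at 32.2 ± 6.45 CPM (SD, n = 4), and near pancreas for Ccr2, at 390.3 ± 20.8 CPM. Ccr9 is also on the list of plasmacytoid DCs, another DC type. Of its 15 genes 5 were lower and 0 higher, and they summed to 251 to 769 CPM in duodenum and 175 to 235 CPM in pancreas. The part of such cells in the Ccr9 difference was not tested. Itgal, the alpha chain of the integrin LFA-1, was at 8.14, 8.12, 7.84 and 6.37 CPM in duodenum and 73, 77.5, 105 and 77 CPM in pancreas, a log2 difference of 3.45 ± 0.16 (SE, adjusted p = 3.31e-08). Selplg, a ligand of selectins, and Alcam, an adhesion molecule for T cells, had log2 differences of 1.17 ± 0.12 and 1.76 ± 0.21 (SE), and Esam, an adhesion molecule used to divide cDC2 subsets, one of -3.07 ± 0.45.

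Receptors for antibodies and for microbes differed as well. Fc receptors bind antibody: Fcgr2b, the inhibitory one, was at 6.72, 3.21, 8.68 and 4.76 CPM in duodenum and 149, 146, 143 and 141 CPM in pancreas, a log2 difference of 4.63 ± 0.29 (SE, adjusted p = 2.46e-07). The 4 pancreas values were close to each other and all above the duodenum values. Fcer1g, the signalling chain of several Fc receptors, rose at a log2 difference of 2.63 ± 0.26 (SE), Fcgrt, the neonatal Fc receptor, at 1.55 ± 0.14 and Fcrla, an Fc receptor-like protein known from B cells, at 2.84 ± 0.28. The 13 Fc receptor genes tested (4 higher, 1 lower, the latter 0 without duodenum 1, duodenum 3 or pancreas 2, 3 or 4) summed to 61.7 to 104 CPM in duodenum and 469 to 531 CPM in pancreas. Tlr2, a sensor of bacterial lipoproteins, was at 2.08, 0.823, 1.77 and 2.33 CPM in duodenum and 30.1, 44.8, 35 and 40.1 CPM in pancreas (log2 difference 4.42 ± 0.30 SE, adjusted p = 4.97e-07), and Tlr4, a sensor of lipopolysaccharide, at 1.54, 1.09, 0.855 and 0.684 CPM in duodenum and 6.49, 13.5, 12.7 and 7.24 CPM in pancreas (log2 difference 3.26 ± 0.39 SE). Tlr12, which senses a profilin of parasites, went the other way, from 220.3, 184, 271 and 248 CPM in duodenum to 16.2, 33.3, 25 and 31.8 CPM in pancreas (log2 difference -3.12 ± 0.22 SE, adjusted p = 7.19e-07), with liver between them at 109 ± 17 CPM (SD, n = 4). Cgas, the sensor of DNA in the cytosol, was higher (log2 difference 1.51 ± 0.21 SE). Of 36 innate sensors 7 were higher and 3 lower, and 4 were higher without pancreas 1 and 8 lower without duodenum 2. Monocytes carry several of these receptors: of 16 monocyte marker genes 5 were higher and 2 lower, and they summed to 684 to 944 CPM in duodenum and 1300.2 to 1613 CPM in pancreas. Ccr2, described above, is on this list too, with means of 41.7 CPM in duodenum and 453 CPM in pancreas. The list means were 863 and 1456 CPM. Ly6c2, which defines inflammatory monocytes, was lower in pancreas (log2 difference -2.35 ± 0.37 SE), and Lyz2, lysozyme of myeloid cells, was higher, at 338, 233, 334 and 341 CPM in duodenum and 789.7, 951, 873 and 855 CPM in pancreas (log2 difference 1.48 ± 0.14 SE, adjusted p = 1.24e-05). Of 19 macrophage genes 4 were higher and 1 lower, and they summed to 449 to 696 CPM in duodenum and 1003 to 1212 CPM in pancreas, without overlap. The median log2 difference of this list was 0.81. Its 1 lower gene was Adgre1 (log2 difference -1.44 ± 0.32 SE), a call that ended without pancreas 3 and pancreas 4 together. The genes C1qa, C1qb, C1qc, Vsig4 and Clec4f of this list, picked after their values were seen, stayed under 5 CPM in all 12 libraries. These picked genes do not stand for the whole list. Timd4, described below, is on this list too and had its largest log2 difference, 3.99. The part of such cells in the receptor differences was not tested.

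Axl and Timd4, receptors for dying cells, were higher in pancreas than in both other tissues. Timd4 is also on the list of macrophage genes. Axl, a receptor tyrosine kinase that binds dying cells through Gas6, was at 4.57, 2.31, 4.45 and 4.41 CPM in duodenum, 34.7, 43.8, 62.2 and 38.9 CPM in pancreas and 6.28, 3.13, 2.74 and 8.79 CPM in liver. The log2 difference was 3.51 ± 0.38 (SE, adjusted p = 3.12e-05) to duodenum and 3.10 ± 0.37 (SE, adjusted p = 0.000352) to liver. Timd4, which binds phosphatidylserine on dying cells, was at 0.919, 0.784, 1.63 and 1.96 CPM in duodenum and 17.5, 16.3, 29.5 and 20.5 CPM in pancreas, and at 2.5, 9.48, 4.05 and 4.44 CPM in liver. Its log2 differences were 3.99 ± 0.43 (SE, adjusted p = 3.12e-05) to duodenum and 2.03 ± 0.39 (SE, adjusted p = 0.0191) to liver. For both genes no pancreas library overlapped with a library of another tissue. Most of the 30 genes on this list did not pass the test: 5 were higher and 1 lower, and the higher count was 2 when pancreas 2, 3 or 4 was left out and 3 when duodenum 3, duodenum 4 or any 1 of the liver libraries was. The lower count was 3 without duodenum 2. Cd36, a scavenger receptor, was called higher (log2 difference 0.84 ± 0.20 SE, adjusted p = 0.0198) but not without duodenum 4 or without pancreas 2, 3 or 4.

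Surface lectins and receptors of the killer-cell type differed in both directions. Cd207, which encodes langerin, was at 0.0237, 0.0181, 0.463 and 0.923 CPM in duodenum and 86.1, 52.8, 59.4 and 62 CPM in pancreas (log2 difference 7.52 ± 1.03 SE, adjusted p = 0.000721). Klrb1b, an inhibitory lectin-like receptor, was at 1.22, 0.358, 2.6 and 1.37 CPM in duodenum and 63.1, 71.3, 96.5 and 65.3 CPM in pancreas (log2 difference 5.74 ± 0.49 SE, adjusted p = 3.6e-06). The gene AB124611, which is not on the lectin list or any other list, was at 1.25, 0.83, 1.24 and 1.33 CPM in duodenum and 63.7, 65.3, 67.8 and 66.3 CPM in pancreas (log2 difference 5.82 ± 0.20 SE, adjusted p = 2.08e-09). For all 3 genes every pancreas library was above 50 CPM and every duodenum library under 3 CPM. Lower in pancreas were the paired receptors Pilra (log2 difference -5.13 ± 0.33 SE), Pilrb1 (log2 difference -5.67 ± 0.66 SE) and Pilrb2 (log2 difference -4.58 ± 0.79 SE), of which the near-identical Pilrb copies may share reads and are uncertain. Of 40 lectins and paired receptors 6 were higher and 8 lower. Some members, such as Cd209a and Cd209d, are also on the list of cDC2 markers given below. With the genes of other cell types and antigen receptor segments left out, 4 were lower.

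Of 36 cytokine receptor genes 12 were higher and 3 lower (1 lower without duodenum 1 and 4 without duodenum 2). Il13ra1, a receptor chain for IL-4 and IL-13, was at 12, 11.4, 12.1 and 10.7 CPM in duodenum and 82.9, 73.4, 75.1 and 60.4 CPM in pancreas, a log2 difference of 2.66 ± 0.15 (SE, adjusted p = 1.35e-07) to duodenum and 1.20 ± 0.14 (SE, adjusted p = 0.000366) to liver. Il12rb2, a chain of the IL-12 receptor, was at 0.384, 0.405, 0.291 and 0.243 CPM in duodenum and 7.32, 9.76, 13.6 and 7.66 CPM in pancreas (log2 difference 4.86 ± 0.35 SE, adjusted p = 7.78e-07). Csf2rb2, a receptor subunit for IL-3, rose at a log2 difference of 2.57 ± 0.16 (SE), and Il6ra, the IL-6 receptor, at 2.00 ± 0.21. Lower in pancreas was Il1r2, the decoy receptor that captures IL-1, at 25.7, 22.5, 31.4 and 24.3 CPM in duodenum and 2.85, 0.624, 1.86 and 3.95 CPM in pancreas (log2 difference -3.48 ± 0.47 SE, adjusted p = 0.000277). Il18, a cytokine of the IL-1 family, was at 3.59, 2.88, 4.91 and 2.43 CPM in duodenum and 25, 21.2, 24.9 and 23.3 CPM in pancreas (log2 difference 2.78 ± 0.21 SE, adjusted p = 1.27e-06), with no overlap.

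In the TGF-beta pathway, which restrains immune cells and imprints tissue residence, 6 of 38 genes were higher and 1 lower (4 lower without duodenum 2 and 2 without liver 4). This was 18.4% called, beside 7.7% of all genes tested and 19.7% of those at 10 to 100 CPM. Tgfbi, a matrix protein that TGF-beta induces, was at 47.7, 35.6, 47.9 and 54.7 CPM in duodenum and 335, 371, 358 and 311 CPM in pancreas (log2 difference 2.89 ± 0.15 SE, adjusted p = 6e-08). Smad3, a transcription factor that carries the TGF-beta signal, was at 1.41, 1.72, 1.95 and 1.41 CPM in duodenum and 14.4, 9.4, 10.5 and 9.98 CPM in pancreas, a log2 difference of 2.77 ± 0.24 (SE, adjusted p = 4.11e-06). Liver lay lower for Smad3 too, at 5.69, 3.34, 3.21 and 3.38 CPM (adjusted p = 0.00334 for pancreas against liver). Smad7, which inhibits that signal, was lower, at a log2 difference of -1.03 ± 0.17 (SE, adjusted p = 0.00175). The carrier of the signal and its inhibitor moved in opposite directions. Notch2, a receptor that shapes DC subsets, rose (log2 difference 1.24 ± 0.14 SE). Of the DC transcription factors, Hic1, Klf4, Irf4 and Runx1 fell, with log2 differences of -6.30 ± 0.68, -2.15 ± 0.25, -1.98 ± 0.30 and -1.93 ± 0.19 (SE). In that list of 50 factors 4 were higher and 12 lower, against 2 higher without pancreas 3, and the lower count ran from 8 to 15 over all libraries left out in turn. Irf4 is also on a marker list of other cell types. With the genes of those lists and antigen receptor segments left out, 9 factors were lower. The part of such cells in these differences was not tested.

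Genes of the leukotriene pathway moved in both directions. Leukotrienes are lipid messengers made from arachidonic acid. Ltb4r1, the high-affinity receptor for leukotriene B4, was at 0.781, 0.258, 0.291 and 0.62 CPM in duodenum and 32.1, 31, 35.8 and 32.3 CPM in pancreas, a log2 difference of 6.08 ± 0.42 (SE, adjusted p = 6.07e-07). Liver was at 2.16, 2.06, 5.05 and 3.16 CPM, and the log2 difference of pancreas to liver was 3.40 ± 0.37 (SE, adjusted p = 0.000156), so that pancreas stood above both other tissues. Alox5ap, which delivers arachidonic acid to 5-lipoxygenase, was at 168, 94.8, 136 and 147 CPM in duodenum and 644, 774, 792 and 701 CPM in pancreas (log2 difference 2.41 ± 0.16 SE, adjusted p = 3.04e-07). Ltc4s, the enzyme that makes leukotriene C4, went from 19.2, 22.1, 17.8 and 22.1 CPM in duodenum to 0.905, 1.26, 1.83 and 1.38 CPM in pancreas (log2 difference -3.91 ± 0.23 SE, adjusted p = 2.29e-07). Ptafr, the receptor for platelet-activating factor, rose (log2 difference 2.51 ± 0.26 SE), and Ptgs2, the inducible prostaglandin synthase, fell (log2 difference -2.68 ± 0.56 SE). In the list of 38 lipid mediator genes 5 were higher and 8 lower (5 without duodenum 1, duodenum 4 or pancreas 1).

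Receptors for metabolites also differed, with 10 of 36 higher and 6 lower. P2ry6, a receptor for the nucleotide UDP that leaks from damaged cells, was at 10.4, 8.34, 12.1 and 7.85 CPM in duodenum and 84.1, 101, 119.7 and 96.2 CPM in pancreas (log2 difference 3.37 ± 0.20 SE, adjusted p = 1.89e-07), and Gpr35, which responds to tryptophan metabolites, at 15.6, 13.9, 17.7 and 13.9 CPM in duodenum and 66.7, 69.2, 70.3 and 53.5 CPM in pancreas (log2 difference 2.09 ± 0.15 SE). Adora3, an adenosine receptor, was higher (log2 difference 1.73 ± 0.23 SE). Ffar2, the receptor for the short-chain fatty acids that gut microbes make, was at 19.2, 27, 22.1 and 31.7 CPM in duodenum and 0.752, 0.419, 1.5 and 0.276 CPM in pancreas (log2 difference -5.08 ± 0.63 SE, adjusted p = 0.000122). Gpr55, a receptor for lysophospholipids, and Gpr171, a receptor for a neuropeptide, fell, with log2 differences of -3.28 ± 0.40 and -1.28 ± 0.22 (SE). Kynu, a tryptophan breakdown enzyme that cleaves kynurenine, was at 60.7, 44.9, 67.2 and 59.1 CPM in duodenum and 7.27, 11.2, 8.84 and 7.45 CPM in pancreas, a log2 difference of -2.74 ± 0.18 (SE, adjusted p = 3.04e-07) to duodenum and -1.84 ± 0.17 (SE, adjusted p = 3.19e-05) to liver. Kmo, another enzyme of this pathway, fell (log2 difference -0.85 ± 0.16 SE, adjusted p = 0.00443), as did Ahr, the receptor that senses tryptophan metabolites (log2 difference -0.86 ± 0.19 SE, adjusted p = 0.0108), and both calls ended without pancreas 3 and pancreas 4 together. Aldh1a2, which makes retinoic acid, was at 66.1, 66.7, 94.1 and 79.6 CPM in duodenum and 9.71, 5.78, 15 and 16.2 CPM in pancreas (log2 difference -2.71 ± 0.34 SE).

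Of 44 type I interferon genes 11 were higher in pancreas and 2 lower, with a lower count of 4 without duodenum 2 and 1 without duodenum 3 or pancreas 2. Their summed level overlapped between the tissues, at 2267 to 3866 CPM in duodenum and 2472 to 3611 CPM in pancreas. Of 30 interferon-gamma genes 1 was higher and 7 lower, and the difference between the lists was not tested. Mx1, which blocks influenza viruses, was at 16, 11, 17.3 and 13.3 CPM in duodenum and 53.1, 61.2, 72.8 and 51.9 CPM in pancreas (log2 difference 2.05 ± 0.16 SE, adjusted p = 1.57e-06). Samd9l, an antiviral protein, was at 33.1, 23.1, 35.5 and 27.6 CPM in duodenum and 103, 119.5, 119.8 and 118 CPM in pancreas (log2 difference 1.95 ± 0.14 SE, adjusted p = 8.22e-07), with no overlap. Herc6 (log2 difference 1.14 ± 0.18 SE) and Ifi207 (log2 difference 1.19 ± 0.19 SE) rose too. The letters GAAANNGAAA of the interferon-stimulated response element were in the 250 bases before the RefSeq start, on either strand, in 2.98% of all promoters and in 17 of 38 promoters of the whole type I list. By gene, they were found for 16 of 32 members with a promoter entry and for 4 of the 7 of these that rose. Without pancreas 3 the higher count was 7. On the interferon-gamma list, Ciita, the activator of MHC class II genes, fell (log2 difference -0.67 ± 0.11 SE, adjusted p = 0.00119), beside Cxcl9 and Cxcl10 above, and the 1 member that rose was Nlrc5, the activator of MHC class I genes (log2 difference 2.05 ± 0.18 SE). The lower count was 3 without pancreas 2, and the higher count 2. H2-Q7, a non-classical MHC class I gene, was higher (log2 difference 1.10 ± 0.14 SE, adjusted p = 0.00012). The class I gene H2-D1 (log2 difference 0.61 ± 0.13 SE, adjusted p = 0.0106) lost its call without pancreas 3, and B2m, the shared light chain (log2 difference 0.58 ± 0.16 SE, adjusted p = 0.0399), when any 1 of 10 libraries was left out, all but duodenum 4 and pancreas 1. The MHC class II genes H2-Ab1, H2-Aa, H2-Eb1 and Cd74 were not called in the main fit. H2-Aa was called higher in 4 alternatives: library totals, a filter of 1 CPM in 4 libraries, and both limma fits on log2 TPM.

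Some genes abundant in duodenum were far lower in pancreas. Apol7c, a member of the apolipoprotein L family, was at 2227, 2035, 2764 and 2708 CPM in duodenum and 7.06, 11.1, 27.2 and 52.5 CPM in pancreas, a log2 difference of -6.64 ± 0.58 (SE, adjusted p = 6.18e-06). Liver was between them, at 203, 339, 373 and 235 CPM, with a log2 difference of pancreas to liver of -3.55 ± 0.50 (SE, adjusted p = 0.00217). Dnase1l3, a secreted nuclease that degrades DNA in dying cells and microparticles, was at 6055, 3725, 6740.3 and 7144 CPM in duodenum and 906, 1286, 1713 and 1208 CPM in pancreas (log2 difference -2.21 ± 0.22 SE, adjusted p = 1.5e-05), and at 4098, 4991, 4736 and 3508 CPM in liver, where the log2 difference of pancreas to liver was -1.76 ± 0.22 (SE, adjusted p = 0.000466). Plac8, a small cysteine-rich protein, was at 344, 334, 446 and 419.7 CPM in duodenum, 23.3, 26.6, 33.1 and 70.7 CPM in pancreas and 331, 292, 324 and 358 CPM in liver. Its log2 difference was -3.33 ± 0.30 (SE, adjusted p = 5.6e-06) to duodenum and -3.09 ± 0.29 (SE, adjusted p = 3.88e-05) to liver. Cd8a, the coreceptor carried by lymphoid cDC1, was at 73.2, 58.8, 99.8 and 86.4 CPM in duodenum and 3.61, 7.07, 6.07 and 4.59 CPM in pancreas (log2 difference -3.90 ± 0.25 SE, adjusted p = 2.99e-07). Cd8b1, on the T cell list, fell as well (log2 difference -3.23 ± 0.53 SE). Of the 20 genes of that list 3 were lower and 0 higher. They summed to 77.2 to 93.4 CPM in duodenum and 50.6 to 61.3 CPM in pancreas, and the part of T cells in the Cd8a difference was not tested.

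Kinase genes and genes linked to proteases were among those that fell. Dapk2, a calmodulin-dependent kinase, was at 101, 105, 126 and 115 CPM in duodenum and 1.89, 1.41, 1.46 and 1.33 CPM in pancreas, a log2 difference of -6.20 ± 0.24 (SE, adjusted p = 5.14e-09). Ctla2b, related to the propeptides of cathepsins, was at 308, 293, 377 and 423 CPM in duodenum and 14.2, 14.5, 15.2 and 21.4 CPM in pancreas (log2 difference -4.42 ± 0.19 SE) and Prkcb, a protein kinase C, at 92.1, 98.9, 74.4 and 107 CPM in duodenum and 19.1, 18.1, 19.2 and 14.4 CPM in pancreas (log2 difference -2.40 ± 0.16 SE). For each of these 3 genes no library of 1 tissue reached those of the other. Camkk1, an activator of calmodulin-dependent kinases, and Tgm2, a transglutaminase, fell with log2 differences of -4.99 ± 0.41 and -4.40 ± 0.30 (SE). Cpm, a carboxypeptidase of the cell surface, and Asb2, a ubiquitin ligase subunit, fell with log2 differences of -3.78 ± 0.23 and -3.16 ± 0.22. On the pancreas side, Serpinf1, a secreted serpin, was at 0.199, 0.526, 0.569 and 0.863 CPM in duodenum and 18, 27.9, 26.5 and 21.9 CPM in pancreas (log2 difference 5.44 ± 0.37 SE). Pglyrp1, which binds bacterial peptidoglycan, was at 4.63, 4.34, 6.81 and 4.87 CPM in duodenum and 65.1, 63, 75.9 and 52.9 CPM in pancreas (log2 difference 3.64 ± 0.18 SE), and Trf, the iron carrier transferrin, at 50.4, 48.8, 46.2 and 40.2 CPM in duodenum and 429, 395, 452 and 382 CPM in pancreas (log2 difference 3.16 ± 0.15 SE). Pcdh7, a cadherin-family adhesion gene, was at 13.5, 14.8, 11.6 and 13.9 CPM in pancreas and 0.332, 0.557, 0.400 and 0.453 CPM in duodenum (log2 difference 4.94 ± 0.30 SE).

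**Figure D3:**
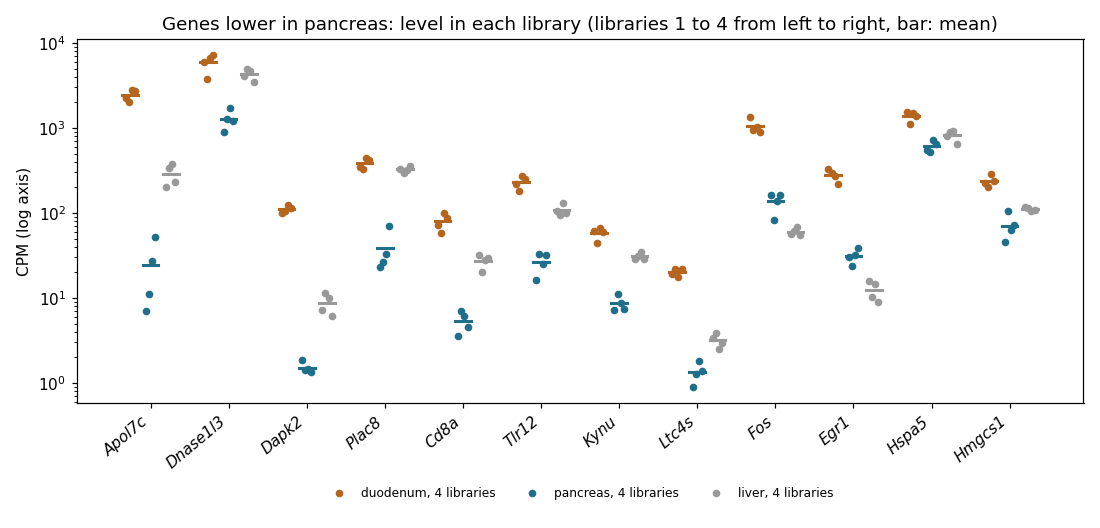
Values of 12 genes lower in pancreas than in duodenum, in CPM on a log axis, with 1 point per library and a bar at the mean of the 4 libraries; liver is shown in grey. For all 12 genes the highest pancreas library lies below the lowest duodenum library, while the place of liver differs: it is near duodenum for Plac8, between the tissues for Cd8a and Tlr12, and below pancreas for Fos and Egr1.

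Immediate-early genes, which are switched on within minutes of a stimulus and also by the handling of tissue, were lower in pancreas. Of 32 tested 18 were lower and 1 higher (2 higher without duodenum 2 or 3), with a median log2 difference of -1.17. Fos, a subunit of the AP-1 factor, was at 1364, 943, 1017 and 905 CPM in duodenum and 162, 82.6, 139 and 163 CPM in pancreas (log2 difference -2.95 ± 0.21 SE, adjusted p = 7.03e-07). Egr1, a zinc finger factor of the early response, was at 327, 299, 270.4 and 219.6 CPM in duodenum and 30.3, 23.6, 31.9 and 38.9 CPM in pancreas (log2 difference -3.16 ± 0.22 SE, adjusted p = 5.65e-07). Pancreas 2 was lowest of the 4 pancreas libraries in both, as it was for 14 of the 18 genes that fell. Junb, Nr4a2 and Ppp1r15a, which restarts translation after stress, fell with log2 differences of -2.46 ± 0.16, -2.56 ± 0.35 and -2.93 ± 0.21 (SE). The member that rose was Gadd45b (log2 difference 2.11 ± 0.30 SE, adjusted p = 0.000418), which NF-kappaB induces. Summed over the list, the level was 7463 to 10520.0 CPM in duodenum, 1914 to 2708 CPM in pancreas and 1515 to 1859 CPM in liver. A part of the dissociation of the tissues in this difference was not tested. The letters TGACGTCA of the cyclic AMP response element, searched as above, were in 1.55% of all promoters and in 4 of 17 promoters of the immediate-early genes that fell (Btg2, Dusp1, Maff and Ppp1r15a). Over the whole list they were in 4 of 35 promoters. The letters TGANTCA of the AP-1 site were in 6.75% of all promoters and in 0 of the 17 promoters of the genes that fell. Chaperones of the heat-shock response were also lower, with 8 of 19 lower and 0 higher. The log2 difference was -1.41 ± 0.20 (SE, adjusted p = 0.000354) for Hsp90aa1, -1.24 ± 0.21 (SE, adjusted p = 0.00212) for Hsph1 and -0.57 ± 0.13 (SE, adjusted p = 0.0152) for Hsp90ab1, whose call ended without pancreas 2.

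Genes of the unfolded protein response were lower in pancreas. This response raises chaperones and enzymes when proteins misfold in the endoplasmic reticulum (ER), through the sensors ATF6, IRE1 and PERK and the factors XBP1 and ATF4. Of 23 genes 16 were lower and 0 higher (69.6% called), with a median log2 difference of -0.86. Hspa5, the main ER chaperone (BiP), was at 1536, 1107, 1501 and 1378 CPM in duodenum and 556, 519, 726 and 652 CPM in pancreas (log2 difference -1.17 ± 0.15 SE, adjusted p = 0.000154). Herpud1, which takes part in the disposal of misfolded proteins, was at 1475, 967, 1298 and 1307 CPM in duodenum and 276, 329.6, 416 and 390.3 CPM in pancreas (log2 difference -1.84 ± 0.17 SE, adjusted p = 7.07e-06). The tissues did not overlap for either gene. The log2 difference was -1.33 ± 0.14 (SE) for Creld2, -1.20 ± 0.15 for Sdf2l1, -0.81 ± 0.11 for the chaperone Hsp90b1 and -0.72 ± 0.14 for the disulfide isomerase Pdia6. It was -0.91 ± 0.14 for the co-chaperone Dnajc3 and -0.91 ± 0.15 for Calr, the calcium-binding chaperone calreticulin. Atf4, the factor downstream of PERK, was at 199, 156, 216 and 204 CPM in duodenum and 68.1, 83.7, 105 and 93.7 CPM in pancreas (log2 difference -1.15 ± 0.14 SE, adjusted p = 0.00014), while Xbp1 was called only without duodenum 2 and had a log2 difference of -0.23 ± 0.15 (SE, adjusted p = 0.47) with all libraries (95% interval -0.56 to 0.09). Beside these genes, transcripts of plasma cells, which are rich in ER chaperones, summed over 17 genes to 8742 to 13014 CPM in duodenum and 253 to 1116 CPM in pancreas. Of these 17 genes 11 were lower in pancreas, and their part in the difference was not tested.

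The promoters of these genes were also searched for the ER stress response element. The 250 bases before each RefSeq start (GRCm38.p6) were searched on both strands for the letters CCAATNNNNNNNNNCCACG. This element was in 0.113% of all 32851 promoters, in 0.682% of the 1467 promoters of genes lower in pancreas and in 0 of the 1261 promoters of genes higher in pancreas. On the unfolded protein response list, 6 of the 15 promoters of genes that fell held it: those of Hspa5, Hsp90b1, Dnajc3, Pdia6, Creld2 and Calr. Over the whole list it was in 6 of 21 promoters. A match is a description of the letters and not a bound site. The 4 promoters below are shown for where the element lies. Its letters CCAAT and CCACG are alike because the search required them, and the bases between them were free to differ. Each is written 5′ to 3′ on the strand of the gene and ends at the base before the start of transcription, with the element in capitals, which reads in reverse complement in Creld2 and in the copy nearer the start in Hsp90b1. They lie at chr2:34771840-34772089 (plus strand) for Hspa5, chr10:86705445-86705694 (minus) for Hsp90b1, chr14:118937682-118937931 (plus) for Dnajc3 and chr15:88819396-88819645 (plus) for Creld2.
Hspa5: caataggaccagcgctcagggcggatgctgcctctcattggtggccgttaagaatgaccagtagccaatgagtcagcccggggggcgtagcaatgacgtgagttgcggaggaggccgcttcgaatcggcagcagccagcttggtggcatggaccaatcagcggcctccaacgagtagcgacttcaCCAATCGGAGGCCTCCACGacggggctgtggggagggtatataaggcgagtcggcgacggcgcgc
Hsp90b1: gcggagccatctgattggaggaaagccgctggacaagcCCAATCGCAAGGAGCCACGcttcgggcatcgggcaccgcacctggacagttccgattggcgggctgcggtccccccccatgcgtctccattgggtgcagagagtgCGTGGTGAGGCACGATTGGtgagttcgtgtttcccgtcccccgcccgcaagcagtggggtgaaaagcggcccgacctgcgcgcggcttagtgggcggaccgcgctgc
Dnajc3: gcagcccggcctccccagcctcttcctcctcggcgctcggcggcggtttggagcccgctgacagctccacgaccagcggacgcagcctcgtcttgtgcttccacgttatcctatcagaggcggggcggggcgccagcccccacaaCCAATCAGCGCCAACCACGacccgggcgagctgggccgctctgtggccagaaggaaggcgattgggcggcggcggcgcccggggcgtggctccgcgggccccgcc
Creld2: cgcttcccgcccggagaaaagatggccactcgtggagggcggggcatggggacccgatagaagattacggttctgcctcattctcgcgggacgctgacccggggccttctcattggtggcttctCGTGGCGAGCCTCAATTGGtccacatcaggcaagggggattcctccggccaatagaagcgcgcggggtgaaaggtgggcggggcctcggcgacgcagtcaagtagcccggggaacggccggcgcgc
In Hspa5 the element begins 65 bases before the start, in Dnajc3 105, in Creld2 126 and in Hsp90b1 212 and 107.

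The pathway that makes cholesterol was lower in pancreas, in 20 of 31 genes with 0 higher and a median log2 difference of -1.27. These genes share control by the factor SREBP2, which is released when sterols run low. The letters TCACNCCAC of the sterol regulatory element, searched as above, were in 1.05% of all promoters and 0.886% of those of genes lower in pancreas. On this list, 1 of 14 promoters of genes that fell held them. Hmgcs1, which opens the pathway, was at 228, 205, 285 and 237 CPM in duodenum and 45.7, 105, 62.6 and 72.1 CPM in pancreas (log2 difference -1.74 ± 0.20 SE, adjusted p = 7.2e-05). Pancreas 2 was the highest pancreas library for 17 of the 20 genes that fell, and stayed below every duodenum library for Hmgcs1. Srebf2, the gene of SREBP2 itself, was not called (log2 difference 0.21 ± 0.13 SE, adjusted p = 0.419). Abcg1, which exports cholesterol and is a target of the sterol sensor LXR, was at 48.2, 29.7, 47.2 and 38.7 CPM in duodenum and 223, 249.7, 319 and 245 CPM in pancreas (log2 difference 2.66 ± 0.16 SE, adjusted p = 2.46e-07), and Mylip, a ubiquitin ligase that LXR induces, rose (log2 difference 1.19 ± 0.14 SE). Soat1, which stores cholesterol as esters, fell (log2 difference -1.84 ± 0.16 SE, adjusted p = 4.44e-06). Of 24 LXR and lipid efflux genes 4 were higher and 5 lower (3 lower without duodenum 1, duodenum 4, pancreas 3 or pancreas 4).

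Most genes of energy metabolism did not pass the test. Of 107 nuclear genes of oxidative phosphorylation 24 were lower and 0 higher, with a median log2 difference of -0.38. The lower count was 51 without duodenum 2 and 37 without pancreas 3. Cox5a, a subunit of cytochrome oxidase, was at 114, 146, 132 and 135 CPM in duodenum and 63, 74.4, 90.2 and 67.8 CPM in pancreas (log2 difference -0.84 ± 0.14 SE, adjusted p = 0.00128). On the glycolysis and hypoxia list of 31 genes 9 were lower and 3 higher (15 lower without duodenum 2). The hexokinases Hk2 (log2 difference -1.41 ± 0.17 SE, adjusted p = 0.000119) and Hk3 (log2 difference -1.73 ± 0.16 SE, adjusted p = 1.06e-05), which trap glucose, fell. The phosphofructokinase Pfkp (log2 difference 1.30 ± 0.21 SE, adjusted p = 0.00144) and the lactate exporter Slc16a3 (log2 difference 1.63 ± 0.31 SE, adjusted p = 0.0039) rose.

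Cytoskeletal and survival genes changed in both directions. Actb, beta-actin, was at 38193, 34691, 38942 and 45308 CPM in duodenum and 19101, 27276, 29851 and 23181 CPM in pancreas (log2 difference -0.66 ± 0.14 SE, adjusted p = 0.00864), and Pfn1, which feeds actin filaments, and Rac2, a small GTPase of motility, fell, with log2 differences of -0.97 ± 0.16 and -1.25 ± 0.19 (SE). Anxa2, a membrane-binding annexin, was at 386, 225, 417 and 410.2 CPM in duodenum and 1540.5, 2185, 2183 and 1603 CPM in pancreas (log2 difference 2.38 ± 0.20 SE, adjusted p = 2.77e-06), and its partner S100a10 at 20.2, 10, 13.6 and 13.2 CPM in duodenum and 208, 329, 316 and 257 CPM in pancreas (log2 difference 4.28 ± 0.23 SE, adjusted p = 6.28e-08). Both were higher in pancreas than in liver too, with log2 differences of 1.86 ± 0.19 (SE, adjusted p = 0.000108) and 1.63 ± 0.20 (SE, adjusted p = 0.000545). Lmna, the nuclear lamin that sets nuclear stiffness, and Dock8, which DCs need to keep their shape in tight spaces, rose, with log2 differences of 2.06 ± 0.26 and 1.10 ± 0.12 (SE). Of 46 genes of this list 18 were higher and 8 lower (13 lower without duodenum 2). Among 31 survival and death genes 9 were higher and 2 lower (1 lower without duodenum 3, duodenum 4, pancreas 1 or pancreas 2). Bcl2l1, which encodes the survival protein BCL-XL, was at 9.88, 10.5, 17.2 and 10.3 CPM in duodenum and 29, 32.8, 28.1 and 32.6 CPM in pancreas (log2 difference 1.36 ± 0.21 SE, adjusted p = 0.000705), and its relative Bcl2 went from 19.8, 23.9, 31.4 and 30 CPM to 11.4, 13, 7.92 and 8.06 CPM (log2 difference -1.38 ± 0.23 SE, adjusted p = 0.0015). The death-promoting genes Bbc3, Bmf, Fas and Bcl2l11 rose, with log2 differences of 1.40 ± 0.24, 1.27 ± 0.22, 1.81 ± 0.30 and 0.91 ± 0.22 (SE), and Bcl2l11 lost its call without duodenum 1, duodenum 3 or pancreas 3.

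**Figure D4:**
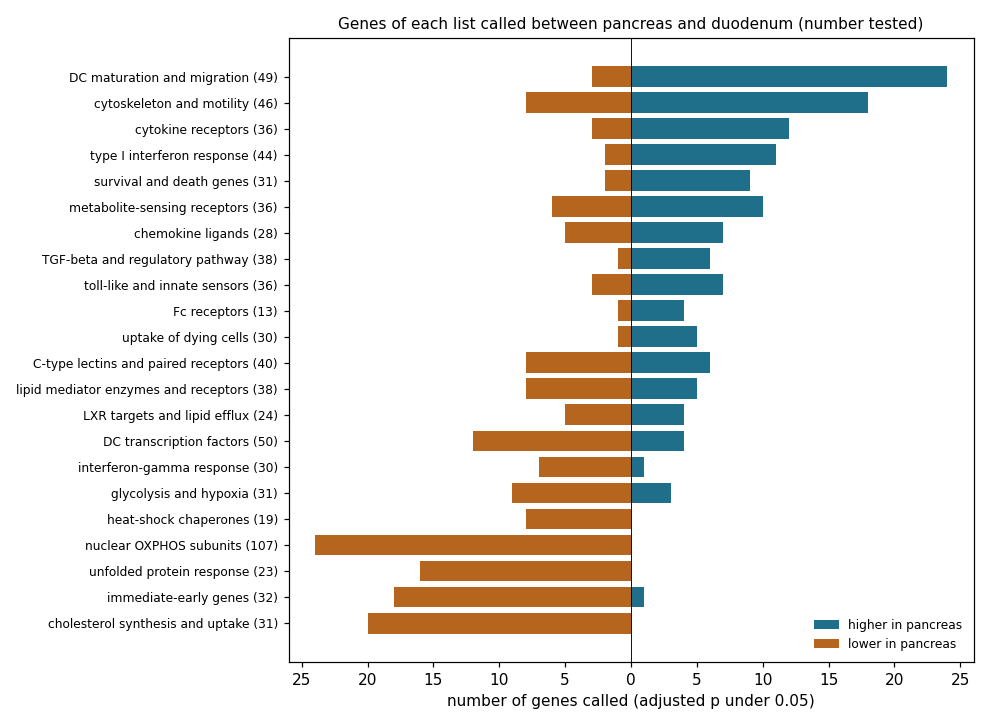
Number of genes of each list that were called higher (to the right) and lower (to the left) in pancreas than in duodenum, with the number tested after the list's name. The maturation list has 24 higher and 3 lower, and the immediate-early, unfolded protein response and cholesterol lists have 18, 16 and 20 lower against 1, 0 and 0 higher.

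Transcripts of other cells of each tissue were found in the sorted libraries. Digestive enzymes of pancreatic acinar cells were higher in pancreas for 29 of 36 genes, with a median log2 difference of 7.07. Summed over the list, acinar transcripts were at 23.8 to 41.1 CPM in duodenum and at 7601, 1343, 4065 and 3761 CPM in pancreas 1 to 4. Cpa1, a carboxypeptidase of pancreatic juice, was at 0.53, 0.289, 0.249 and 0.266 CPM in duodenum and 403, 77.3, 224 and 189.8 CPM in pancreas (log2 difference 9.40 ± 0.66 SE, adjusted p = 6.64e-07), and the elastase Cela2a at 0.791, 0.642, 0.64 and 2.12 CPM in duodenum and 824, 183, 512 and 442 CPM in pancreas (log2 difference 8.87 ± 0.60 SE, adjusted p = 5.03e-07). Pancreas 1 was highest for 28 of the 29 genes and pancreas 2 lowest for 29. The amylase genes Amy2a1 to Amy2a5 are near-identical copies, and Amy2a2, Amy2a3 and Amy2a4 had the same value in every library, so their single values are uncertain. Insulin transcripts of islet beta cells had another order: Ins2 was at 4.45, 9.38, 9.54 and 8.93 CPM in pancreas 1 to 4, lowest where acinar transcripts were highest, and at 0.0616, 0.0774, 0.0885 and 0.227 CPM in duodenum (log2 difference 6.15 ± 0.49 SE, adjusted p = 2.03e-06). Ins1 was at 0.788, 1.79, 1.48 and 1.74 CPM in pancreas (log2 difference 4.99 ± 0.56 SE). The transcription factor genes Ptf1a of acinar cells and Pdx1 and Nkx6-1 of islet cells stayed under 1 CPM in every library. Of 28 intestinal epithelial genes 1 was higher (0 without duodenum 4 or pancreas 2) and 2 lower, and the list summed to 152 to 181 CPM in duodenum and 119.5 to 151 CPM in pancreas.

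Antibody transcripts were the reverse. Igha, the heavy chain of IgA, was at 4431, 6486, 4832 and 6404 CPM in duodenum and 0.368, 4.68, 1.15 and 4.23 CPM in pancreas (log2 difference -11.05 ± 0.93 SE, adjusted p = 2.07e-05). Igkc, the kappa light chain, was at 2757, 2247, 2082 and 3601 CPM in duodenum but at 0.15, 0.461, 485 and 493 CPM in pancreas 1 to 4, so pancreas 1 and 2 were under 1 CPM and pancreas 3 and 4 were not, and it was not called (log2 difference -3.45 ± 2.80 SE, adjusted p = 0.606). Jchain, which joins IgA units, showed the same split, at 0.726, 1.16, 108 and 145 CPM in pancreas, and was called lower only by DESeq2's Wald test and by limma on log2 TPM. The stromal genes Dcn and Col3a1 also divided the pancreas libraries in this way, at 0.749, 0.907, 30.2 and 30.5 and 1.31, 0.485, 9.55 and 13.8 CPM. Neither was called with all libraries; Dcn was called without pancreas 1 or pancreas 2 and Col3a1 without pancreas 2. Leaving out pancreas 3 and 4 together left 807 genes higher and 1151 lower, and the maturation list then had 18 genes higher. Markers of cDC2, the other conventional DC type, were lower for 7 of 16 genes and higher for 1, Ccr2. Sirpa was at 5.66, 2.96, 11.8 and 8.16 CPM in duodenum and 0.736, 1.57, 2.04 and 1.71 CPM in pancreas (log2 difference -2.24 ± 0.42 SE, adjusted p = 0.0038). The summed level of the list, which includes Ccr2, went the other way, at 189.5 to 321 CPM in duodenum and 590 to 730 CPM in pancreas. Whether such cells or free RNA entered the sort was not tested.

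**Figure D5:**
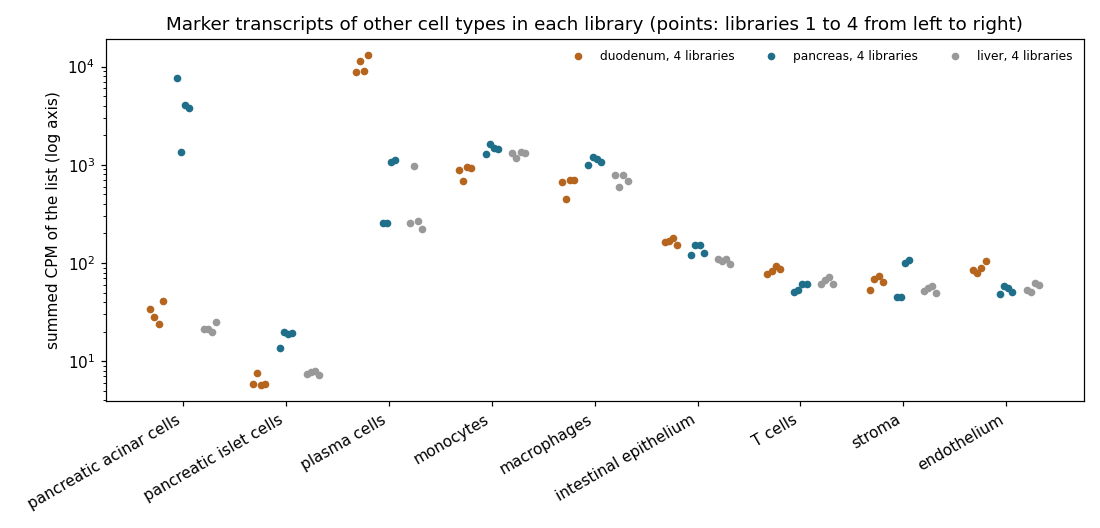
Summed CPM, on a log axis, of the marker lists of other cell types in each of the 12 libraries, with 1 point per library. Acinar transcripts stand at 1343 to 7601 CPM in the pancreas libraries and at 23.8 to 41.1 CPM in duodenum, and plasma cell transcripts at 8742 to 13014 CPM in duodenum and 253 to 1116 CPM in pancreas.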

How the data were processed

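RNA-seq of sorted CD103+ CD11b- migratory DCs was analysed as the authors deposited it: estimated counts per gene (kallisto, genome build GRCm39, per the submitters' processing notes; the version is not given in the sources used here) and TPM values, which the authors made from the same estimates. The counts were rounded to whole numbers and genes were kept with edgeR's filterByExpr. All 12 libraries were fitted with TMM factors in edgeR 4.0.16 (quasi-likelihood test, R 4.3.3), with no replicate block, and pancreas minus duodenum was tested over 44624 genes with Benjamini-Hochberg adjustment at 0.05. The fit was tested on simulated data. Alternatives used DESeq2 1.42.0, limma 3.58.1 on log2 TPM with 1 or 0.1 added, other filters, and left-out libraries. Predicted genes were counted but not named.

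The members and gene lists were chosen with earlier results of these data known. Named genes were, in each direction, the 12 with the largest log2 difference, the 8 with the largest CPM difference and the 8 outside all lists with the smallest adjusted p, each at 10 CPM or more in the higher tissue, up to 5 called genes per list (5 CPM or more), and genes marked in the lists. The genes chosen by log2 or CPM difference also had to show no overlap between the libraries of the tissues. A further 27 genes with values, and genes given only as below a level, were chosen after their values were seen. Totals of 228.5 to 356.1 M counts per library leave counting error small beside the spread between pools for all but the rarest transcripts. Equal replicate numbers do not mark a shared animal or day in the labels. Promoters are RefSeq's (GRCm38.p6) and were matched by symbol.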

Additional observations from a re-analysis of the deposited data

Results flagged for a closer look

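A library was set apart where its gap to the nearest of the other 3 of its tissue took a share of the range of the 4 above Dixon's 95% critical value. This was so in 19 of 178 groups of 4 values examined, and chance alone gives about 1 in 20. Duodenum 2 was lowest for Anxa2 (225 CPM against 386 to 417), Axl (2.31 against 4.41 to 4.57), Cd86 (156 against 239 to 254), Lyz2 (233 against 334 to 341), the summed Fc receptor genes (61.7 against 101 to 104 CPM) and the summed macrophage genes (449 against 665 to 695.5 CPM). It was highest for Dcn, at 2.43 CPM against 0.583 to 0.851. Pancreas 3 was highest for Ccl5 (611 CPM against 252 to 284), Il15ra (91.5 against 49.8 to 55.5) and Itgal (105 against 73.0 to 77.5). Pancreas 1 was lowest for Ins2 (4.45 CPM against 8.93 to 9.54) and Samd9l (103 against 118 to 119.8). Pancreas 4 was highest for Ccr9 (19.4 CPM against 8.7 to 9.48) and Ctla2b (21.4 against 14.2 to 15.2). In duodenum, library 3 was highest for Bcl2l1 (17.2 CPM against 9.88 to 10.5), and library 4 was highest for Cela2a (2.12 against 0.64 to 0.791) and Ins2 (0.227 against 0.0616 to 0.0885) and lowest for Itgal (6.37 against 7.84 to 8.14). Duodenum 1 was highest for Cpa1, at 0.53 CPM against 0.249 to 0.289. In none of these genes but Cd86 and Dcn did the libraries of pancreas and duodenum overlap.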

How the results depend on the processing

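Of 261 named genes that were called, 183 kept their call in every alternative that gave them a value (24 to 26 alternatives), 78 lost it in at least 1 and 0 changed direction; 17 of 67 named genes that were not called were called in at least 1. Genes given above with their difference and no remark kept their call in every alternative that gave them a value, other than the stricter limits. Against 1680 genes higher and 1757 lower, leaving out 1 library gave 1222 to 1682 higher and 1290 to 3034 lower, the last without duodenum 2. DESeq2's Wald test called 2761 genes lower. Leaving out pancreas 3 and 4 together gave 807 higher and 1151 lower, where fewer libraries entered. An adjusted p under 0.01 left 894 higher and 933 lower, and a log2 difference of at least 1 left 1150 higher and 918 lower, by construction. Library totals in place of TMM gave 2354 higher and 1790 lower, and DESeq2's size factors 1294 and 1943. With library totals the higher counts of 3 lists were 8 for cDC1 identity, 12 for innate sensors and 8 for DC transcription factors, and with DESeq2's size factors they were 3 for cDC1 identity and 2 for the uptake of dying cells. The cause of the other changes was not tested. With the replicate number as a block 1496 genes were called higher and 1629 lower, and 2927 of the 3437 genes called without the block were among them. The correlations of the deviations of same-numbered duodenum and pancreas libraries were -0.019, -0.0986, 0.159 and -0.0903. Only the libraries numbered 3 were each the best match of the other. Such weak correlations cannot settle whether same-numbered pools share mice or a day. Of transcripts under 1 CPM in the higher tissue 1.23% were called.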
